A study of Saccharomyces cerevisiae with 91 samples.

Results

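The promoters described here belong to 126 genes that encode proteins of the cytosolic ribosome of budding yeast, Saccharomyces cerevisiae. They were picked by name from a table of in vivo nucleosome positions, as each open reading frame (ORF) named RPL, for the large subunit, or RPS, for the small subunit, plus a number and, for duplicated genes, A or B, together with the RPP genes of the ribosomal stalk. No measured value entered this choice. The 126 genes are part of 4536 ORFs and 4963 transcripts in the table, and the other 4410 ORFs are the background. The reference annotation names a ribosomal protein as the product of all 126. Another 12 annotated genes have a matching name and no row and were not analysed here: 11 ribosomal protein genes (RPL7B, RPL21A, RPL29, RPL41A, RPL41B, RPP1A, RPS8A, RPS11A, RPS22B, RPS26A and RPS28A) and RPP1, which encodes an RNase P protein.

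The study asked how the INO80 chromatin remodeler places nucleosomes, mostly on yeast genomic plasmid DNA assembled into chromatin in vitro by salt gradient dialysis. The positions used here are its in vivo reference. They derive from nuclei of BY4741, a wild-type laboratory strain without a further mutation or treatment for this experiment, grown in YPD (rich glucose medium) to log phase and digested with micrococcal nuclease (MNase), which cuts DNA between nucleosomes. They come from 1 of 91 libraries in the series, and no other library was used.

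Apart from the acidic proteins of the stalk, each ribosome needs every ribosomal protein in equal number. A growing yeast cell transcribes these genes at very high rates and shuts them down together under stress or starvation. Most of their promoters carry a site for Rap1, a general regulatory factor that opens chromatin. Rap1 helps to recruit Fhl1 and Ifh1, the factors dedicated to these genes, and Hmo1, an HMG-box protein, joins at many of them, whereas Abf1 takes the place of Rap1 at a minority. The whole genome duplication left most of these genes in A and B copies with nearly the same protein and independently evolved promoters.

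A dyad is the midpoint of the DNA on a nucleosome. The +1 nucleosome is the first one downstream of the transcription start site (TSS), the −1 nucleosome is the next one upstream of it, and the nucleosome-depleted region (NDR) lies between them. NDR length was given as the distance from the −1 to the +1 dyad, so that it includes 73 bp of nucleosomal DNA at each end. All 126 genes had a +1 dyad, a −1 dyad and an NDR length. With 1 library there was no replicate error, and as the values are coordinates, the number of reads behind a dyad is unknown. No test was therefore made. Medians, quartiles and counts over genes describe this library, and 95% intervals of counts (Wilson) cover counting over genes only.

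NDR lengths of ribosomal protein genes were either short or long, with few near the length typical of yeast genes. The median was 241 bp (quartiles 172 and 368 bp, n = 126), against 265 bp (230 and 298 bp, n = 4359) in the other ORFs. The medians were close, but the spread between the quartiles was 196.5 bp against 68 bp. An NDR of 200 to 300 bp was found in 26 genes (20.6%, interval 14.5 to 28.5%), compared with 60.1% of the other ORFs. An NDR under 200 bp was found in 47 genes (37.3%, interval 29.4 to 46.0%), compared with 16.3%. An NDR over 300 bp was found in 53 genes (42.1%, interval 33.8 to 50.8%), compared with 23.6%, and 17 of these (13.5% of 126) exceeded 400 bp, compared with 7.11%. Genes of the mitochondrial ribosome, which are regulated apart from these genes, did not have this pattern. They were taken by name only, as MRP, MRPL or MRPS plus a number, so that genes named otherwise are left out. Their median was 268.5 bp (248.5 and 284 bp, n = 46), with 3 genes under 200 bp and 8 over 300 bp.

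**Figure D1:**
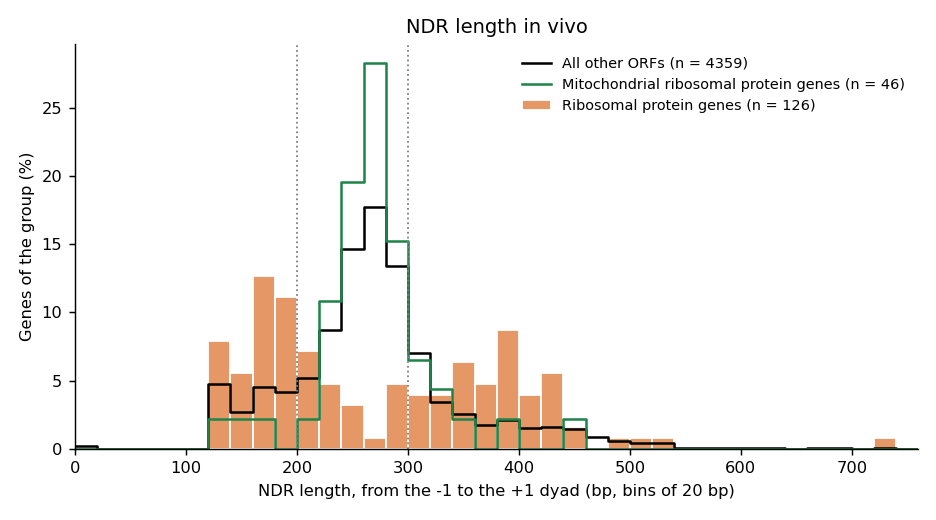
NDR length (bp, bins of 20 bp) against the share of genes in each group (%). Bars show the 126 ribosomal protein genes, lines the 4359 other ORFs and the 46 mitochondrial ribosomal protein genes, and dotted lines mark 200 and 300 bp. The bars are high on both sides of the range that holds 60.1% of the other ORFs.

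The shortest NDRs belonged to RPL26B, RPL40B and RPS24B with 120 bp each, followed by RPS2 with 121 bp and by RPL42A and RPS7A with 122 bp. These values sit at the lower edge of what the calling allowed, since peaks close to a called dyad were removed: 9 of the other ORFs were listed below 120 bp. In 12 ribosomal protein genes the NDR was no longer than 146 bp, so that the cores of both nucleosomes adjoin or overlap as called. A long NDR, in turn, means that no retained peak lay in it, since the authors dropped the weakest peaks. At the other end stood RPL5 with 452 bp, RPS6B with 490 bp, RPL17A with 502 bp, RPL22A with 524 bp and RPS9A with 728 bp. RPL5 binds the smallest ribosomal RNA of the large subunit, and RPS6 is the phosphorylated protein of the small subunit. Nearest to the median of 241 bp were RPL20A with 242 bp, RPL39 with 240 bp and RPS21B with 239 bp.

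Both kinds of promoter occurred within pairs of duplicated genes. The following 300 bases from each gene of 3 such pairs are shown because 1 copy had an NDR under 200 bp, the other had one over 300 bp, and both carried a Rap1 motif, and this held for no other pair. The pairs were picked after their values were seen. They run from 351 to 52 bp upstream of the +1 dyad, 5′ to 3′ on the coding strand, in R64 (SacCer3) coordinates from the RefSeq reference sequence. Capitals mark Rap1 motifs (ACCCNNACA on either strand).
RPL13A, chrIV:308067-308366, plus strand: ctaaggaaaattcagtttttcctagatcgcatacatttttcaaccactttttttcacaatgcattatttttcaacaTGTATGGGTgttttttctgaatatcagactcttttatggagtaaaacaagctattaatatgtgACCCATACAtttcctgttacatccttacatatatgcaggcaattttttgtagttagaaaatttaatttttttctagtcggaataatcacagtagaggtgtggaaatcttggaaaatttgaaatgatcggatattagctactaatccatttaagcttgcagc
RPL13B, chrXIII:551240-551539, minus strand: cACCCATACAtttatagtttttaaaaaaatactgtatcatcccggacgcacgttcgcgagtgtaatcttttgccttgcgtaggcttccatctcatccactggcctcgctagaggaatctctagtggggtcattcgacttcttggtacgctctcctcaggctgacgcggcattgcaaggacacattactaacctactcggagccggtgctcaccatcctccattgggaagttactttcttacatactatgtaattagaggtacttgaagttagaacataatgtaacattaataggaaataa
RPS10A, chrXV:866740-867039, plus strand: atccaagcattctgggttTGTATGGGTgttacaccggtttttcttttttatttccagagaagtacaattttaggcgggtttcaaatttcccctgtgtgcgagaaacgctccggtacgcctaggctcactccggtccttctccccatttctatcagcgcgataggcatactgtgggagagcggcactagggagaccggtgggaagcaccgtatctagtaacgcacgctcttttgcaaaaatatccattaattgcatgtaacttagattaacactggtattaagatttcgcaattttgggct
RPS10B, chrXIII:732070-732369, plus strand: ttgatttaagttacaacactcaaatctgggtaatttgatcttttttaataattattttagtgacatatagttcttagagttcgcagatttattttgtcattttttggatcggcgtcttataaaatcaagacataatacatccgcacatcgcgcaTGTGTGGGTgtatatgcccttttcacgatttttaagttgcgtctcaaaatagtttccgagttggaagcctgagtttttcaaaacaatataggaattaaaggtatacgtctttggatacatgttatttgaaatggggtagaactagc
RPL36A, chrXIII:650823-651122, plus strand: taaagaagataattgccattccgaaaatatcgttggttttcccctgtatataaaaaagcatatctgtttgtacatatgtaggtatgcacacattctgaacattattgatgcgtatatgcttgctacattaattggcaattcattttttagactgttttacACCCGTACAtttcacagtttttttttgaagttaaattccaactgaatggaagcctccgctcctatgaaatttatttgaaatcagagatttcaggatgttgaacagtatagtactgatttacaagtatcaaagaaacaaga
RPL36B, chrXVI:76348-76647, minus strand: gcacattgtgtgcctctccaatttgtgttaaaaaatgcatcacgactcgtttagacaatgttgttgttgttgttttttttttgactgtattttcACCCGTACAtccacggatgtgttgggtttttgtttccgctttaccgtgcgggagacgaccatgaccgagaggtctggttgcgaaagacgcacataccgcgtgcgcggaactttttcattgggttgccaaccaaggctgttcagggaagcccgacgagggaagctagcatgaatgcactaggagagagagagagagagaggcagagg

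RPL13 and RPL36 are proteins of the large subunit and RPS10 lies in the head of the small subunit. The copies with long NDRs were RPL13A (435 bp), RPS10B (359 bp) and RPL36A (313 bp), and their printed stretches held 69.0%, 66.7% and 68.0% A+T. The copies with short NDRs were RPL13B (191 bp), RPS10A (165 bp) and RPL36B (167 bp), with 56.3%, 54.3% and 51.3% A+T. In all 3 pairs the long copy was thus the richer in A+T. In RPL13B the Rap1 motif covers bases 2 to 10 of the printed stretch and the −1 dyad lies at base 161, between the motif and the gene. In RPS10A the motif covers bases 19 to 27 and the −1 dyad lies at base 187, and in RPL36B bases 95 to 103 and base 185. In RPL13A and RPS10B the −1 dyad lies upstream of the stretch, and in RPL36A it lies at base 39, upstream of the motif at bases 161 to 169.

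The difference in base composition held across the genes. Between 100 and 300 bp upstream of the +1 dyad, the 47 genes with an NDR under 200 bp had a median A+T content of 50.2% (quartiles 48.3 and 55.2%). The 26 genes with 200 to 300 bp had 52.0% (48.4 and 55.6%), and the 53 genes with over 300 bp had 65.2% (61.7 and 67.2%). The other ORFs had 64.2% (61.2 and 67.7%, n = 4402). In this window, ribosomal protein genes with long NDRs therefore had the composition of ordinary promoters, and those with shorter NDRs had far more G+C. With an NDR under 200 bp the window lies mostly on the −1 core and the DNA upstream of it. With an NDR over 300 bp it lies mostly between the cores. The values are thus not the A+T content of the NDRs themselves. An A+T content under 55% was found in 54 of 126 genes (42.9%), compared with 5.16% of the other ORFs. These 54 were 32 of the 47 genes with an NDR under 200 bp, 18 of the 26 with 200 to 300 bp and 4 of the 53 with over 300 bp.

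In the other ORFs low A+T content also went with short NDRs, but less strongly. The 710 other ORFs with an NDR under 200 bp had a median of 61.7% A+T, and 18.5% of them were under 55%. This share was 2.67% in the other ORFs with 200 to 300 bp and 2.53% in those with over 300 bp. In the plot of A+T content by position, the ribosomal protein genes with an NDR under 200 bp fell to 47.0% at 180 bp upstream of the +1 dyad, and those with over 300 bp did not go below 59.8% in this range. At the upstream edge of the +1 core the curves met, with maxima of 71.7% at 70 bp and 69.6% at 80 bp, against 68.1% at 100 bp in the other ORFs. Across the 126 genes NDR length and A+T content had a Pearson correlation of 0.66, and across 4359 other ORFs of 0.30. Both measures share the +1 dyad. With a window of 50 to 250 bp upstream of the TSS, which uses no dyad, the correlation was 0.68 over the 126 genes and 0.25 over the other ORFs. Within the short, middle and long class, where the range of NDR lengths is restricted, the correlation with this window was −0.26 (n = 47), 0.28 (n = 26) and −0.04 (n = 53). MNase prefers to cut A+T-rich DNA, and its part in these values was not tested.

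**Figure D2:**
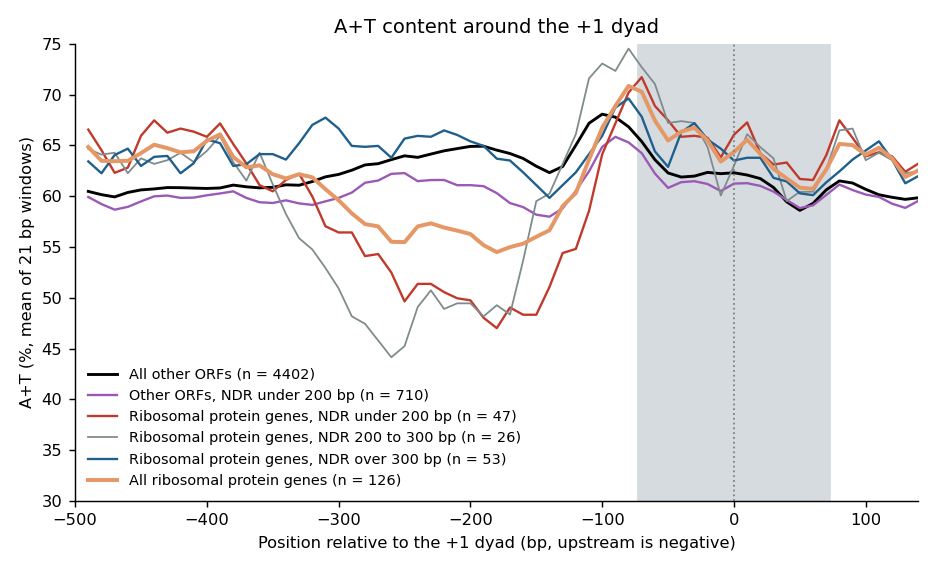
A+T content (%, mean of 21 bp windows) by position relative to the +1 dyad (bp), as lines for all other ORFs, other ORFs with an NDR under 200 bp, all ribosomal protein genes and these genes by NDR length; the grey band is the +1 core. The red line falls to 47.0% at 180 bp upstream of the dyad, while the line of genes with an NDR over 300 bp stays at or above 59.8% between 100 and 300 bp.

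The 4 genes with a long NDR and under 55% A+T, RPL17A, RPS6B, RPP2A and RPS30B, were exceptions. RPL17A and RPS6B had NDRs of 502 and 490 bp with 50.2% and 52.7% A+T, and RPP2A and RPS30B had 329 and 320 bp with 50.2% and 53.2%. The reverse exceptions, with an NDR under 200 bp and at least 60% A+T, were RPL21B (64.7%), RPL40B (62.2%) and RPS9B (60.7%). These 7 genes were named after their values were seen.

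Rap1 motifs were frequent upstream of ribosomal protein genes, and few of them lay in the cores of the −1 and +1 nucleosomes. Nucleosomes further upstream were not scored. Within 400 bp upstream of the +1 dyad, ACCCNNACA occurred (on the coding or the opposite strand) in 40 of 126 genes (31.7%, interval 24.3 to 40.3%), compared with 4.07% of the other ORFs. These 40 genes held 44 motifs, 36 of them reading along the coding strand. Of the 44 motifs 42 occupy distinct positions, since RPL13A shares 1 with its divergent neighbour RPS16B, and RPL13B 1 with RPS16A. The sequence ACCCATACA made up 19 of the 44 motifs, ACCCAAACA 8, ACCCGTACA 7, ACCCACACA 5, ACCCAGACA 4 and ACCCTTACA 1. In the other ORFs ACCCATACA made up 16.5% of 182 motifs, and all 15 forms found in the data occurred.

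By NDR class, the motifs lay on different sides of the −1 nucleosome. In 19 genes with an NDR under 200 bp, all 21 motifs lay upstream of the −1 core. In 15 genes with an NDR over 300 bp, all 17 motifs lay between the cores. Of the 6 motifs in genes with 200 to 300 bp, 4 lay upstream of the −1 core and 2, in RPL7A and RPS24A, near its edges, 65 bp downstream and 58 bp upstream of the −1 dyad. None of the 44 lay in the +1 core. In the other ORFs 28 of 182 motifs lay in the +1 core and 37 in the −1 core. Among other ORFs with an NDR under 200 bp, 13 of 28 motifs lay upstream of the −1 core, 8 in it and 7 in the +1 core. With an NDR over 300 bp, 38 of 55 lay between the cores, 10 in the −1 core and 7 in the +1 core.

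The side itself is nearly fixed by the class limits and the search window of 400 bp. A short NDR leaves hardly any space between the cores, and with a long NDR hardly any of the window lies upstream of the −1 core. The other ORFs accordingly had 0 of 28 motifs between the cores in the short class and 0 of 55 upstream of the −1 core in the long class. What the limits leave free is whether a motif falls in a core, which 0 of 21 and 0 of 17 motifs of ribosomal protein genes did. The distance of the motif to the TSS was 267 bp (median, quartiles 206 and 288 bp, range 157 to 352 bp) in genes with a short NDR and 174 bp (158 and 199 bp, range 74 to 239 bp) in genes with a long NDR. Both the classes and the window rest on dyads, and within 500 bp the values were 281 bp (29 motifs) and 174.5 bp (18 motifs). In the short class the −1 dyad lay 155 bp (127 and 183 bp) downstream of the motif. In the long class the −1 dyad lay on the far side, 151 bp (144 and 164 bp) upstream of the motif. In the other ORFs the motif was 101.5 bp upstream of the TSS in the short class and 134 bp in the long class. RPL35A, RPS11B and RPS16A, with motifs 287, 286 and 289 bp upstream of the +1 dyad, were nearest to the median of the nearest motifs, 286.5 bp. Their NDRs of 419, 173 and 147 bp place motifs at nearly the same distance on either side of a −1 nucleosome.

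**Figure D3:**
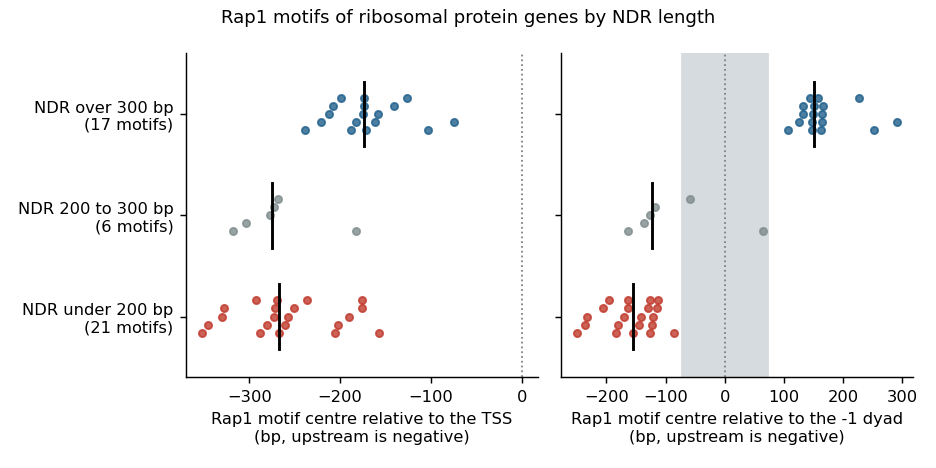
Rap1 motif centres relative to the TSS (left, bp) and to the −1 dyad (right, bp; the grey band is the −1 core), upstream negative, 1 point per motif in rows by NDR class with the median as a bar. The 21 motifs of the short class lie upstream of the −1 core and the 17 motifs of the long class downstream of it.

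Genes with a Rap1 motif did not have longer NDRs than those without. The median was 220 bp (quartiles 167 and 368 bp, n = 40) against 264.5 bp (183 and 368 bp, n = 86). Their A+T content between 100 and 300 bp was 57.0% against 56.5%. A gene counted without a motif can still have a site spelled otherwise.

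In the first column of +1 dyads, the +1 dyad of ribosomal protein genes lay about as far from the TSS as in other genes, and the −1 dyad varied more. In the second column the +1 medians were 65 and 49 bp. The +1 dyad was 58.5 bp downstream of the TSS (median, quartiles 41.3 and 79 bp, n = 126), against 54 bp (40 and 72 bp, n = 4402) in the other ORFs. It was over 100 bp from the TSS in 11 genes (8.73%), compared with 14.2%. The −1 dyad was 163.5 bp upstream of the TSS (111 and 309 bp), against 211 bp (161 and 247 bp, n = 4366). It was over 300 bp upstream in 38 genes (30.2%), compared with 9.83%.

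**Figure D4:**
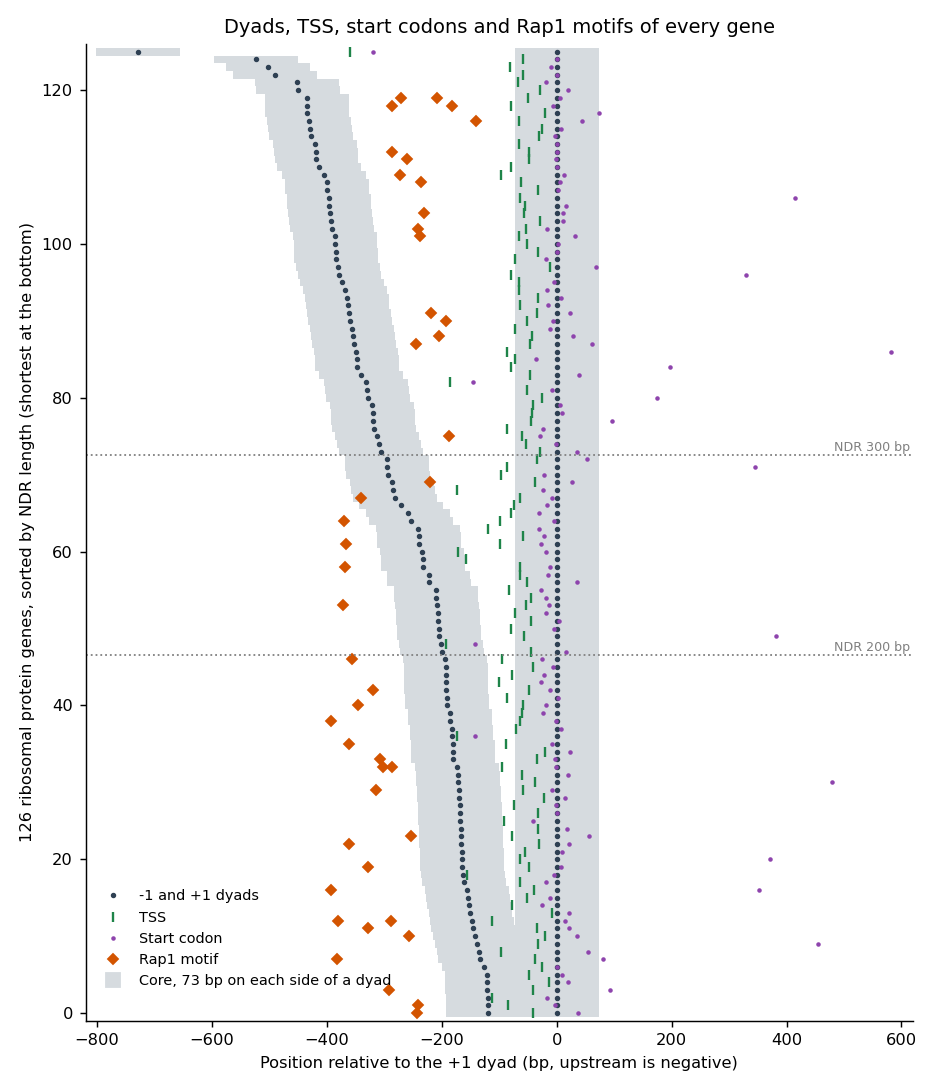
Each row is 1 of 126 ribosomal protein genes, sorted by NDR length and aligned at the +1 dyad (position in bp, upstream negative). Dots mark dyads, grey bands the cores, green ticks the TSS, purple dots the start codon and orange diamonds Rap1 motifs within 400 bp; the start codon of 1 gene, RPL8A, lies outside the range. TSS and start codon stay close to the +1 core in nearly all rows, while the −1 core moves from 120 to 728 bp.

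The +1 dyads farthest from the TSS were those of RPS9A (360 bp), RPL26A (193 bp) and RPL38 (186 bp). The nearest were those of RPS18A (9 bp), RPS12 (12 bp) and RPL42A (14 bp). For the −1 dyad RPL22A (466 bp), RPS6B (431 bp) and, both at 421 bp, RPL10 and RPL17A were farthest upstream. RPL10 is the protein that joins the large subunit last and lets it pair with the small one. The −1 dyads of RPL33B (7 bp), RPS24B (8 bp), RPL21B (9 bp) and RPL26A (9 bp) lay almost on the TSS, so that the listed −1 nucleosome covers the start site. It also does so in other genes with a −1 dyad under 73 bp from the TSS, such as RPS16A (34 bp) and RPL40B (35 bp).

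In 5 genes, compared with 5.92% of the other ORFs, the second column of +1 dyads in the table differed by over 100 bp from the first, whose values are used throughout. It placed the +1 dyad of RPS9A 72 bp from the TSS in place of 360 bp, which gives an NDR of 440 bp in place of 728 bp. It placed RPL21B at 16 bp in place of 174 bp, RPL38 at 18 bp in place of 186 bp and RPL26A at 79 bp in place of 193 bp, with NDRs of 25, 164 and 88 bp. RPP2A moved the other way, from 25 to 173 bp, with an NDR of 477 bp. In RPS9A, RPL21B, RPL38 and RPL26A the first column lies 319, 143, 146 and 143 bp past the start codon, inside the gene. Both columns lay within 20 bp of each other in 88 genes (69.8%), compared with 76.4%. The origin of the second column was not stated in the sources used here.

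The start codon of ribosomal protein genes lay almost on the +1 dyad. The median was 0.5 bp downstream of it (quartiles −15.8 and 22 bp, n = 126), against 7 bp (−17 and 66 bp, n = 4278). It was within 20 bp of the dyad in 71 genes (56.3%), compared with 37.8%, and at or upstream of the dyad in 63 genes (50%), compared with 43.8%. The genes of the mitochondrial ribosome taken by name were similar, with 25 of 47 within 20 bp. The exceptions downstream were genes with a long leader: in 10 genes the start codon was over 250 bp from the TSS, as in RPL24A (516 bp), RPL32 (431 bp) and RPS29A (669 bp). As the +1 dyad is chosen by the listed TSS, it lay far from the start codon in these genes. Whether each listed TSS is correct was not tested. In RPL8A the listed TSS lies 770 bp past the annotated start codon, at the end of the coding sequence, so its row does not describe its promoter. Without RPL8A the median NDR length of the other 125 genes was 242 bp.

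Large and small subunit genes both had the pair of NDR classes. The 71 large subunit genes had a median NDR of 253 bp (quartiles 188.5 and 363.5 bp), with 23 genes under 200 bp, 18 at 200 to 300 bp and 30 over 300 bp. The 51 small subunit genes had a median of 207 bp (165 and 371.5 bp), with 24, 7 and 20 genes. The medians differed by less than the spread among genes of either subunit, and the intervals of the short share, 22.7 to 43.9% and 34.1 to 60.5%, overlap. The +1 dyad was 61 and 59 bp from the TSS, and the −1 dyad 170 and 141 bp. An NDR over 400 bp was more often seen in the large subunit, in 13 of 71 genes against 4 of 51, with intervals of 11.0 to 28.8% and 3.09 to 18.5% that overlap as well.

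The stalk is the flexible arm of the large subunit that binds translation factors, built of RPP0 at its base and pairs of the acidic proteins RPP1 and RPP2. Its 4 genes in the table had NDRs at the long end: 306 bp in RPP0, 386 bp in RPP1B, 329 bp in RPP2A and 295 bp in RPP2B. Their +1 dyads were 29, 66, 25 and 35 bp from the TSS, and their −1 dyads 277, 320, 304 and 260 bp. None had an NDR under 200 bp, but with 4 genes this share has an interval of up to 49.0%. RPP1B alone had a Rap1 motif, 238 bp upstream of the +1 dyad.

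RPL40A, RPL40B and RPS31 encode fusions of ubiquitin with a ribosomal protein, and so supply both ribosomes and protein degradation. RPL40A and RPS31 had NDRs of 347 and 341 bp, and RPL40B had 120 bp. The −1 dyads of RPL40A and RPL40B were at the same time the +1 dyads of another transcript. RPL40B carried a Rap1 motif 242 bp upstream of its +1 dyad, and the other genes had none.

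Genes without a paralogue mostly had long NDRs. The 18 genes named without A or B had a median of 353 bp (quartiles 254 and 411.5 bp), and 12 of them were over 300 bp and 1 under 200 bp. They include RPL3, at the catalytic center, with 365 bp, RPS3, where the mRNA enters, with 429 bp, RPL5 with 452 bp and RPL10 with 450 bp. RPS2 with 121 bp was the short one, followed by RPS15 with 200 bp and RPL25, at the exit of the peptide tunnel, with 210 bp. The 52 A copies had a median of 270 bp (185 and 375 bp) and the 56 B copies 199.5 bp (166 and 335.5 bp). Their A+T content between 100 and 300 bp was 64.4% in single genes, 57.0% in A copies and 55.2% in B copies.

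Paralogues resembled each other little in NDR length. In the 50 pairs with both copies in the table the NDRs differed by 77.5 bp (median of absolute differences, quartiles 27.8 and 164 bp), while all 7825 combinations of ribosomal protein genes that are not paralogues differed by a median of 112 bp. The copies were within 20 bp of each other in 10 pairs (20%), against 12.4% of the combinations, and over 100 bp apart in 24. The Pearson correlation of A and B over the 50 pairs was 0.09. Both copies were in the same class in 19 pairs: 9 both short, 1 both middle and 9 both long. In 13 pairs 1 copy was short and the other long, with the long one being A in 8 pairs and B in 5. The A copy had the longer NDR in 30 pairs and the B copy in 20, with a median difference of 19.5 bp.

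**Figure D5:**
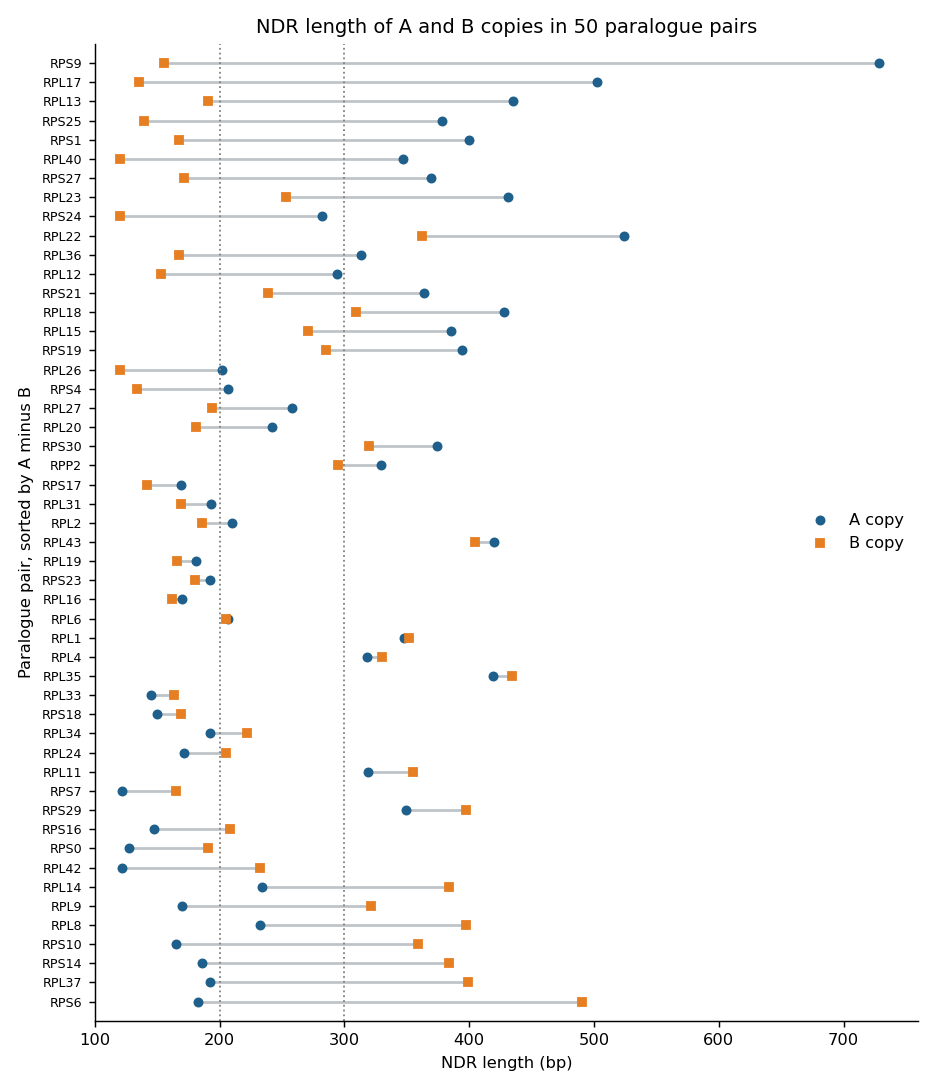
NDR length (bp) of the A copy (blue circle) and the B copy (orange square) of each of 50 paralogue pairs, sorted by the difference A minus B; dotted lines mark 200 and 300 bp. The A copy is longer in 30 pairs, and the differences run from 2 bp in RPL6 to 573 bp in RPS9.

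The largest differences were those of RPS9 (728 bp in A and 155 bp in B), RPL17 (502 and 135 bp), RPS6 (183 and 490 bp) and RPL13 (435 and 191 bp). RPS9 is a protein of the decoding region, and the value of RPS9A rests on the +1 dyad inside the gene; with the second column its difference was 293 bp. The smallest differences were those of RPL6 (207 and 205 bp), RPL1 (348 and 352 bp), RPL16 (170 and 162 bp), RPL4 (318 and 330 bp) and RPS23 (192 and 180 bp). The −1 dyad varied more within pairs than the +1 dyad. Its distance to the TSS differed by a median of 91.5 bp within pairs, against 118 bp in the other combinations. That of the +1 dyad differed by 29 bp within pairs, against 27 bp. The +1 dyad is by definition the nearest one downstream of the TSS, which limits its spread.

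Within pairs that differed much, the copy with the longer NDR was mostly the one richer in A+T. This was so in 30 of 50 pairs, in 20 of the 24 pairs that differed by over 100 bp and in 12 of the 13 pairs with a short and a long copy. In these 13 pairs the long copies had a median of 66.7% A+T and the short ones 50.2%, with a median difference of 10.4 percentage points within pairs. The 300 bp upstream of the +1 dyad were no more alike in paralogues than in other combinations, with a median aligned identity of 59% in both. A Rap1 motif was found in both copies of 6 pairs, in 1 copy of 21 and in neither copy of 23.

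Introns are rare in yeast and concentrated in ribosomal protein genes: 85 of 126 (67.5%) had one in the coding sequence, compared with 2.59% of the other ORFs. Genes with an intron had a median NDR of 207 bp (quartiles 169 and 364 bp), with 39 of 85 under 200 bp, and the 41 genes without had 329 bp (223 and 378 bp), with 8 under 200 bp and 25 over 300 bp. The A+T content between 100 and 300 bp differed with them, at 53.2% and 63.7%. In the other ORFs 13.8% of the 109 genes with an intron and 16.1% of the 4130 without had an NDR under 200 bp. Introns within 5′ leaders are not in the annotation used, so some genes counted without an intron have one there.

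The upstream neighbour was divergent in 74 genes (58.7%), compared with 52.4% of the other ORFs, and pointed the same way in 52. NDRs were 221 bp (median, quartiles 169.5 and 351 bp) in the first and 290 bp (182.5 and 384.5 bp) in the second group. Ribosomal protein genes had much space upstream, with 656.5 bp (median, quartiles 499.75 and 843 bp) from the start codon to the next coding sequence, against 436 bp (284 and 699 bp). Their −1 nucleosome was seldom the +1 nucleosome of a neighbour, in 11 genes (8.73%), compared with 26.5%. Of the 11, 9 had an NDR over 300 bp.

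In 5 places ribosomal protein genes stand back to back. In 4 of them both genes shared the −1 dyad, and it did not lie in the middle. RPL24A had an NDR of 171 bp and RPL30, whose protein binds its own transcript, one of 434 bp, measured from the same −1 dyad. The start codon of RPL24A lies over 250 bp from its listed TSS, and whether this TSS is correct was not tested. RPL13A with 435 bp faced RPS16B with 208 bp, RPS22A with 413 bp faced RPL39 with 240 bp, and RPP2A with 329 bp faced RPS15 with 200 bp. On the side of the longer NDR A+T was 61.7% against 50.2%, 69.7% against 50.7%, and 64.7% against 48.8%, in this order, but 50.2% against 54.2% for RPP2A and RPS15. RPL13B and RPS16A, with NDRs of 191 and 147 bp, had separate −1 dyads 388 bp apart.

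Of the other motifs, that of Fhl1 was found in a larger share of genes than in the other ORFs. The shares of PAC and TATA had intervals below those of the other ORFs (11.2 to 24.1% and 25.7 to 41.9%), and the intervals of Abf1 (3.25 to 12.0%), Reb1 (11.8 to 25.0%) and RRPE (2.72 to 11.0%) covered them. Fhl1 (GACGCA) was found in 18 of 126 genes (14.3%), compared with 8.04%. Of these 18 genes 11 had an NDR over 300 bp, beside 53 (42.1%) of all 126. Among the 11 were RPL11A (319 bp), RPL28 (418 bp) and RPL15A (385 bp), whose motifs were 170.5, 177.5 and 178.5 bp from the +1 dyad. Whether this split by class is particular to ribosomal protein genes was not tested. RPL28 is known for mutations that give resistance to cycloheximide. Abf1 (TCANT and ACG with 4 bases between them) was found in 8 (6.35%), compared with 9.88%, for instance in RPL43B, RPS28B and RPS8B with motifs at 173.5, 187.5 and 172.5 bp. Reb1 (TTACCC), the factor studied with INO80, was found in 22 (17.5%), compared with 22.8%. Of its motifs 9 lay between the cores, 6 in the −1 core, 3 in the +1 core and 4 upstream. In the other ORFs 63.2% of Reb1 motifs lay between the cores, against 40.9% here. A short NDR leaves hardly any space there, and short NDRs were more frequent here. By class, 0 of 10 motifs lay between the cores with a short NDR, 2 of 3 in the middle and 7 of 9 with a long NDR. The part of NDR length in this difference was not tested. RPL15B, RPL17B and RPS20 had theirs at 172.5, 168.5 and 172.5 bp. The motifs were searched on both strands within 400 bp upstream of the +1 dyad, and a match does not show binding.

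RRPE (AAAAATTTT) and PAC (GATGAG) are elements of the genes for ribosome assembly factors, which are regulated along with ribosomal proteins. RRPE was found in 7 genes (5.56%), compared with 10.8%, namely RPL3, RPL4A, RPL10, RPL15A, RPL18B, RPS13 and RPS29B, and all 7 had an NDR over 300 bp with the motifs between the cores. In the other ORFs 80.4% of RRPE motifs lay between the cores as well, and the share of genes with one was 5.77%, 9.69% and 16.7% from the short to the long class. PAC was found in 21 (16.7%), compared with 25.9%, among them RPL37A, RPS17B and RPL35B at 150.5, 137.5 and 134.5 bp. A TATA sequence (TATAAA) was found in 42 (33.3%), compared with 53.1%, among them RPS10B, RPS19A and RPS25A at 231.5, 219.5 and 234.5 bp. By class, 24 of 53 genes with a long NDR, 5 of 26 in the middle and 13 of 47 with a short NDR had it. Whether this split is particular to ribosomal protein genes was not tested. RRPE and TATA hold only A and T, and the part of the A+T content in these counts was not tested.

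Runs of A and T, which stiffen DNA, were compared at both positions upstream of the dyad that the study examined. The DNA rigidity score, which gives each base the length of the A run plus T run it belongs to, was averaged over 21 bp. At 100 bp upstream of the +1 dyad its median was 1.52 (quartiles 1.14 and 2.24), against 1.95 (1.38 and 2.71) in the other ORFs. At 55 bp it was 1.69 (1.19 and 2.18), against 1.43 (1.00 and 1.95), so that the order was the reverse there. Within 400 bp upstream, stretches of at least 6 A held a median of 0 bases, against 6, and stretches of at least 6 T held 7, against 6.

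Reads with several matches in the genome were left out by the authors, which can hide nucleosomes on duplicated sequence. Under 90% of the 36-base words that could mark the +1 dyad were unique in 5 genes (3.97%), compared with 0.318%: RPL1A (50.0%), RPL4B (62.7%), RPL4A (76.5%), RPL15A (89.2%) and RPL15B (89.2%), all large subunit genes with start codons close to the dyad. Of the 5, 4 had NDRs over 300 bp. Without these and 1 further gene with such a −1 dyad, the other 120 genes had a median NDR of 233 bp, with 39.2% under 200 bp and 40.0% over 300 bp. Of the restriction sites whose positions were deposited, BamHI sites lay between the −1 and +1 dyads of 2 genes, compared with 1.74% of the other ORFs. EcoRV sites did in 3, compared with 6.88%, and a KpnI site in 1, compared with 2.32%.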

How the data were processed

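Mononucleosomal DNA of MNase-digested nuclei (1 library) was sequenced by the authors and mapped to SacCer3 with Bowtie, without multiple matches. The submitters' processing notes name Bowtie and Bowtie2 2.2.9. Read ends were shifted to the dyad and the density was smoothed. Peaks were taken in order of height, each removing its surroundings, and the weakest were dropped. The +1 dyad is the one nearest downstream of the TSS and the −1 dyad the next upstream. The deposited values are coordinates in bp of dyads, TSS and predicted restriction sites. All 4903 deposited NDR lengths equalled the dyad distance. The second +1 column served as an alternative, and 7 columns were not used.

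The members and gene lists were chosen with earlier results of these data known. Named genes were those with the most extreme NDR lengths, +1 and −1 distances and pair differences, the stalk and ubiquitin fusion genes, genes whose +1 columns disagreed, and those nearest to the median NDR length or motif distance. Other genes were named after their values were seen. Start codons, introns and sequences came from the RefSeq R64 reference, in which all listed restriction sites on nuclear chromosomes (1657 BamHI, 4202 EcoRV and 1904 KpnI) fell on their recognition sequence. The window for A+T content was chosen after the profile was seen. Pairs were aligned globally (match 1, mismatch −1, gap −2 and −0.5). Python 3.11.15, numpy 2.4.6, pandas 2.3.3, scipy 1.17.1, statsmodels 0.14.6, matplotlib 3.10.9 and Biopython 1.88 were used, and search and score functions were tested on simulated data. Depth is unknown and replicates are lacking, so no test was made. Intervals cover counting error only. Alternatives changed the +1 column, members, background, windows, motifs and stretch lengths.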

Additional observations from a re-analysis of the deposited data

How the results depend on the processing

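Of 160 alternative values, 121 lay within the interval of the reported value and 39 lay outside it. Sign was checked only for the A minus B difference in NDR length and for the correlation of NDR length with A+T content. Neither changed sign. Of the 160, 49 came from alternatives chosen after seeing the data. With each paralogue pair counted once, as the mean of both copies, 26.3% of values were under 200 bp in NDR length and 19.7% had a −1 dyad over 300 bp from the TSS, as averaging pulls pairs to the middle. With the second +1 column the +1 dyad lay 65 bp from the TSS and the start codon −8 bp from the dyad. The start codon value thereby changed sign, from 0.5 bp with the first column. A Rap1 motif was found in 18.3% of genes within 300 bp, in 42.9% within 500 bp, and in 13.5% as ACCCATACA only. Reb1 as TTACCCG was found in 4.76%, compared with 11.2% of the other ORFs, which lies above the interval of the ribosomal protein genes. With TTACCC the interval covered the share of the other ORFs, so the Reb1 comparison depends on the spelling. PAC within 500 bp was found in 24.6%. TATA within 300 bp was found in 22.2%, compared with 45.8% of the other ORFs. With stretches of at least 5 bases, poly(dA) held 1.75% and poly(dT) 3.00% of bases, and within 200 bp poly(dT) held 0%. The A+T contents by NDR class and the distance of Rap1 motifs to the TSS did not move beyond their intervals under the alternatives run. Within 500 bp PAC was found in 30.3% of the other ORFs, inside the interval of the ribosomal protein genes, 17.9 to 32.8%. Leaving out RPP1 removed nothing. No paired analysis was possible because a single library was used. Depth is unknown, and a second library would be needed to give the error of any dyad.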

Other observations

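Genes that regulate ribosomal protein genes or share their high transcription had NDRs of varied length. Of 8 regulators listed, 5 had values: RAP1 341 bp, FHL1 296 bp, HMO1 211 bp, ABF1 364 bp and REB1 172 bp, with a median of 296 bp. REB1, which encodes a general regulatory factor, was the only one of the 5 with a Rap1 motif. Of 9 genes listed for translation elongation and ribosome-bound proteins, 6 were in the table and 4 had an NDR length. TEF2, for the factor that delivers aminoacyl-tRNA, had 498 bp, EFT1 and EFT2, both for the translocation factor, had 308 and 249 bp, and CAM1 had 129 bp.

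The genes of glycolysis, also highly transcribed in glucose medium, had long NDRs with few short ones. Their median was 324.5 bp (quartiles 260.75 and 401 bp, n = 14), with 8 over 300 bp and 1, TDH1 with 120 bp, under 200 bp. PFK1 (618 bp), PGI1 (492 bp), ENO2 (425 bp) and CDC19 (411 bp) had the longest. The value of PFK1 rests on a +1 dyad 330 bp downstream of the TSS, with the −1 dyad 288 bp upstream. None of the 14 had a Rap1 motif of the form searched. Their +1 dyads lay 96.5 bp from the TSS (median, quartiles 77 and 122 bp), against 58.5 bp in the ribosomal protein genes, and their A+T content between 100 and 300 bp upstream of the +1 dyad was 65.9%.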
